A study of Mus musculus with 194 samples.

Results

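Oligodendrocytes are the glia that wrap axons in myelin, and 35 genes used by these cells were followed across brain structures, cocaine experiences and times. The genes were listed by name as oligodendrocyte genes, with earlier results of these data known, and all 35 were found among the 19363 genes of the count table. They fall into 5 groups by role. Compact myelin and tight junction genes number 5 (Mbp, Mobp, Mal, Pllp, Cldn11). Other myelin and surface membrane genes number 9 (Mag, Mog, Cnp, Opalin, Ermn, Gjb1, Gjc3, Tspan2, Cd9). Lineage transcription factors number 5 (Sox10, Olig1, Olig2, Nkx6-2, Myrf). Lipid and metabolic genes number 8 (Ugt8a, Fa2h, Aspa, Car2, Qdpr, Trf, Apod, Sirt2), and signaling, protease, stress and other genes also number 8 (Lpar1, Gpr37, Adamts4, Bcas1, Ppp1r14a, Tmem88b, Cryab, Ndrg1).

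An oligodendrocyte matures from a dividing precursor under the control of Sox10, Olig1, Olig2 and, at the onset of myelination, Myrf. The mature cell lays down sheets of membrane rich in galactolipids and cholesterol, which Mbp holds together at their inner faces while Cldn11 seals the layers at tight junctions. Its transcripts are therefore dense in white matter tracts and sparse in cortical gray matter. Several of the 35 genes, such as Cd9, Car2, Cryab, Apod and Sirt2, are also used by other cells of the brain.

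The study profiled male C57BL/6OLAHSD mice, 6 to 7 weeks old at arrival, with 3′-RNA-seq of the dorsal striatum (DS), nucleus accumbens (NAc), limbic cortex (LCtx), lateral hypothalamus (LH) and amygdala (Amy). Mice were habituated to saline injections before the 1st dose, and cocaine was given i.p. at 20 mg/kg in every group that received it. Acute mice received a single dose, repeated mice (chronic in the sample labels) received 5 daily doses, and challenge mice received a dose after 21 days of abstinence from repeated cocaine. Tissue was taken at 0, 1, 2 or 4 hr, where the 0 hr mice came untreated from the home cage that day, unlike those of the later times, and were naive (acute), 24 hr past the 4th dose (repeated) or abstinent (challenge). There were 48 mice (16 acute, 17 repeated and 15 challenge), and 166 samples, each 1 structure of 1 mouse. Each experience had cohorts of its own (1 for acute, 2 for repeated and 1 for challenge mice), so cohort and cocaine experience cannot be told apart in any comparison between experiences, within a run or across runs. Challenge mice were also older at dissection, and age cannot be told apart either. The tissue was bulk, in which fewer oligodendrocytes and less RNA per oligodendrocyte cannot be told apart.

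Library totals ran from 1193306 to 10367769 counts over 194 libraries. For 24 DS mice, 8 of each experience with 2 at each time point, a library was sequenced together with those of the other experiences in what is called the shared run, and these libraries carry the main comparison. Their totals were 2096787 to 2704694 for acute, 1689860 to 2170571 for repeated and 1269391 to 1805910 for challenge mice, so depth fell in the same order as many values below. With all libraries thinned to the smallest, the number of members called differed by at most 2 from that at full depth in each comparison of the shared run. Elsewhere, acute and challenge libraries never shared a run, and run and experience cannot be told apart. Values are CPM, the counts of a gene per 1000000 counts of its library. Fold changes are log2 values with standard errors (SE) from edgeR, and a gene was called when its Benjamini-Hochberg adjusted p over all genes tested was under 0.05 and its fold change was over 1.2.

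The regulatory sequence next to the start of transcription was available for 24 of the 35 genes as RefSeq promoters of GRCm38.p6, which span 250 bases before to 50 bases after the start. The promoters of Mobp, Mag and Cldn11 are shown because these genes fell in every structure after challenge, and that of Apod because it was the 1 member called higher in challenge against acute mice of the DS libraries that were sequenced together. Capitals mark 3 motifs searched on both strands. CTGGCAC is a form of the motif bound by MYRF, and ACAAAG and ACAATG are forms of the motif bound by SOX factors. None of these letters overlap between motifs in the sequences shown.
Mobp, chr9:120149492-120149791, plus strand: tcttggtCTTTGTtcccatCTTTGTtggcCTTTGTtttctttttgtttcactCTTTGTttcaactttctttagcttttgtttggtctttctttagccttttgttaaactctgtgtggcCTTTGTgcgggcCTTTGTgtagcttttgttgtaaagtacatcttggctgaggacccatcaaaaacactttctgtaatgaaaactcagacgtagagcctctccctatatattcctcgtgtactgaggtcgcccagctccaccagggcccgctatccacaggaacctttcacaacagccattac
Mag, chr7:30914814-30915113, minus strand: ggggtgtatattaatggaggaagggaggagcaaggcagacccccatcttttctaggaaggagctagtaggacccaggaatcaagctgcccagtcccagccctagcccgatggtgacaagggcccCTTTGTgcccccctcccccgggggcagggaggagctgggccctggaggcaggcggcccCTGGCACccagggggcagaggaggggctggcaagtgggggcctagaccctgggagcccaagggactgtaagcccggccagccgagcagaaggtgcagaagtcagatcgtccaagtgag
Cldn11, chr3:31149670-31149969, plus strand: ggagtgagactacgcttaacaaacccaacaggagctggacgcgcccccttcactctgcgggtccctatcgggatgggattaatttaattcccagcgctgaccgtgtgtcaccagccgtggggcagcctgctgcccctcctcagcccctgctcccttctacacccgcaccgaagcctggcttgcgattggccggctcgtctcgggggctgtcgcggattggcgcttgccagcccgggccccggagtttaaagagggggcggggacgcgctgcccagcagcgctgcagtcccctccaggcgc
Apod, chr16:31314759-31315058, minus strand: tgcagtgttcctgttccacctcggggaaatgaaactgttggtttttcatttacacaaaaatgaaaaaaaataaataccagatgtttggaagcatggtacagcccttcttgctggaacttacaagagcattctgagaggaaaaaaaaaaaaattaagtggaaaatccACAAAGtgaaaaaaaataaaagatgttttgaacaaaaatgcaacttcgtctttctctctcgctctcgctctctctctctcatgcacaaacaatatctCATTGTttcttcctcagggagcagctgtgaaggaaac
The Mobp promoter held ACAAAG 6 times, each on the opposite strand and so written CTTTGT, and no other of the 14749 genes with a promoter in the table held it that often. The Mag promoter shown, at 1 of the 3 starts listed for this gene, held 1 CTGGCAC and 1 ACAAAG. The Apod promoter held 1 ACAAAG and 1 ACAATG, and the Cldn11 promoter held none of the 3 motifs. Some genes have several starts, so that the 24 members had 32 promoters. CTGGCAC was found in 4 of 24 members (Mag, Cnp, Opalin and Lpar1) and in 6.18% of all 14749 genes. ACAAAG was found in 8 of 24 (Mobp, Mag, Cnp, Opalin, Gjb1, Tspan2, Apod and Lpar1) against 18.45% of all genes. ACAATG was found in 7 of 24 (Ermn, Gjb1, Olig2, Apod, Sirt2, Lpar1 and Tmem88b) against 11.1%. These are matches of letters only, and binding was not measured.

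Compact myelin transcripts were lower in the DS of challenge mice than of acute mice sequenced in the same run. Mbp, the basic protein that compacts the sheath, ran from 4703 to 5422 CPM in the 8 acute mice (median 4982), from 3303 to 4067 in the 8 repeated mice (median 3746) and from 2446 to 3772 in the 8 challenge mice (median 2685). All repeated and all challenge libraries were below all acute ones, and the repeated and challenge ranges overlapped. Mbp fell by 0.83 on the log2 scale in challenge against acute mice (SE 0.05, adjusted p 9.30e-24). Mobp, a second basic protein of compact myelin, ran from 1124 to 1314 CPM in acute mice (median 1259), from 1005 to 1423 in repeated mice (median 1245) and from 741 to 1019 in challenge mice (median 820). For Mobp the acute and repeated ranges overlapped widely, whereas all challenge libraries were below all acute ones (log2FC −0.53, SE 0.05, adjusted p 5.42e-13).

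Cldn11, the claudin of myelin tight junctions, had 523 to 600 CPM in acute mice (median 568.1), 429 to 582 in repeated mice (median 503) and 279 to 431 in challenge mice (median 327). The challenge libraries were again all below the acute ones (log2FC −0.68, SE 0.06, adjusted p 1.60e-13). Mal, a raft proteolipid of myelin, had 432 to 536 CPM in acute mice (median 468), 322 to 498 in repeated mice (median 407) and 248 to 327 in challenge mice (median 295). Its acute and challenge libraries did not overlap (log2FC −0.66, SE 0.06, adjusted p 1.96e-13). Pllp, a plasmolipin of myelin membranes, ran from 76.0 to 103 CPM in acute mice (median 89.5), 59.8 to 104 in repeated mice (median 86.1) and 51.2 to 97.5 in challenge mice (median 68.7). The 3 ranges of Pllp overlapped, and its decrease after challenge was the smallest of the group (log2FC −0.30, SE 0.11, adjusted p 0.0384). At 0 hr alone its difference had the opposite sign (0.17).

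**Figure D1:**
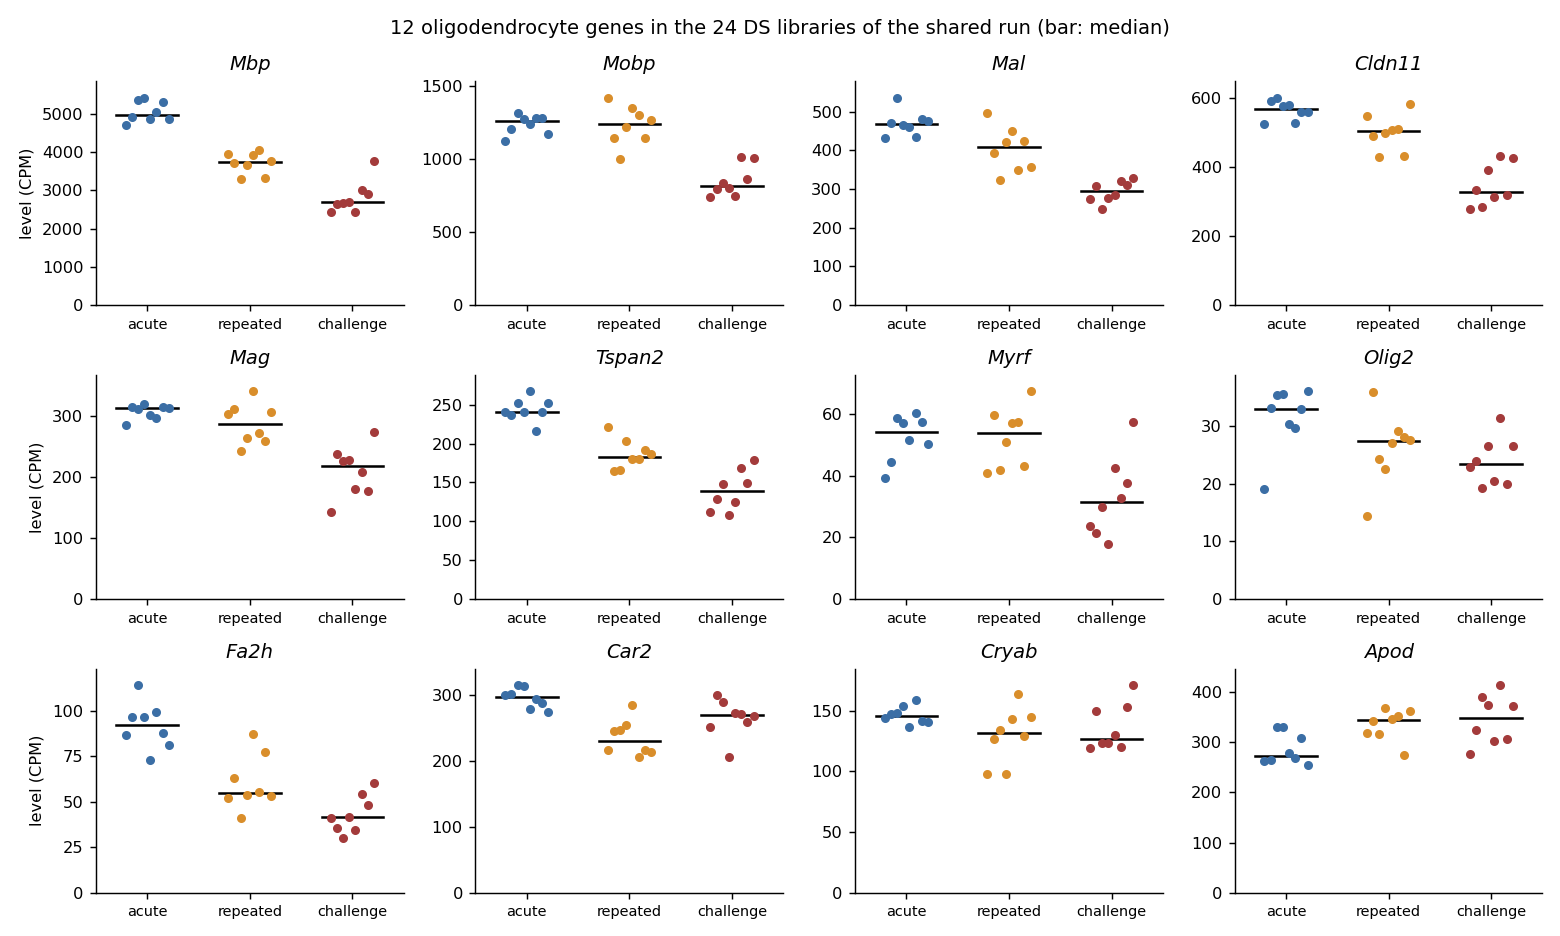
CPM of selected members in the DS libraries of the shared run, with cocaine experience on the x axis, 1 point per mouse (8 per experience), a bar at the median and y axes that start at 0. Mbp sits between 4703 and 5422 in acute mice and between 2446 and 3772 in challenge mice, while the Olig2 and Car2 groups overlap.

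In challenge against acute mice of the shared run, 19 of the 35 members were called lower and 1 higher, where 8.24% of the 11210 genes tested were called lower and 9.61% higher. The median log2FC was −0.38 over the members and 0.00 over all genes. By role, 5 of 5 compact myelin genes fell (median −0.66), 5 of 9 surface genes (median −0.29), 2 of 5 lineage factors (median −0.38), 3 of 8 lipid and metabolic genes (median −0.27) and 4 of 8 of the others (median −0.44). DESeq2 called 18 members lower and 1 higher, and 8 were called lower when the 0 hr mice alone were compared (2 per experience).

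Among the surface genes, Tspan2, a tetraspanin of the oligodendrocyte lineage, fell most. It had 217 to 267 CPM in acute mice (median 241), 165 to 222 in repeated mice (median 183) and 108 to 179 in challenge mice (median 138), with no overlap between acute and challenge (log2FC −0.78, SE 0.08, adjusted p 5.66e-13). Gjc3, a connexin of glia, fell by 0.67 on the log2 scale (SE 0.14). Mag, the glycoprotein of the membrane that faces the axon, had 285 to 320 CPM in acute mice (median 313), 243 to 340 in repeated mice (median 287) and 142 to 275 in challenge mice (median 217). Its challenge libraries all lay below the acute ones (log2FC −0.54, SE 0.08, adjusted p 5.09e-08). Mog, a glycoprotein on the outermost myelin layer, fell by 0.32 (SE 0.09), and Ermn, a cytoskeletal protein of mature oligodendrocytes, by 0.29 (SE 0.10). Cnp, an enzyme of the cytoplasmic channels of myelin, had a log2FC of −0.06 (adjusted p 0.487), Cd9, another tetraspanin, of −0.08 (adjusted p 0.661) and Opalin, a sialylated myelin protein, of −0.18 (adjusted p 0.396). The gap junction gene Gjb1 had a log2FC of 0.08 (adjusted p 0.809).

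Of the lineage factors, Myrf and Olig1 fell. Myrf, which switches on myelin genes in the maturing cell, had 39.4 to 60.3 CPM in acute mice (median 54.3), 40.8 to 67.4 in repeated mice (median 54.0) and 17.9 to 57.6 in challenge mice (median 31.3). Its acute and challenge ranges overlapped, and it fell by 0.67 (SE 0.14, adjusted p 0.000254). Olig1, a basic helix-loop-helix factor of the lineage, fell by 0.44 (SE 0.09, adjusted p 0.000108). Olig2, its neighbor on chromosome 16, had 19.0 to 36.0 CPM in acute mice (median 33), 14.4 to 35.9 in repeated mice (median 27.3) and 19.2 to 31.4 in challenge mice (median 23.4). All 3 ranges of Olig2 overlapped, and it did not pass the test (log2FC −0.38, SE 0.17, adjusted p 0.0978). Sox10, which marks the lineage from precursor to mature cell, had a log2FC of −0.32 (SE 0.12, adjusted p 0.0579), and Nkx6-2, a homeodomain factor, of 0.17 (SE 0.21, adjusted p 0.622).

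Of the lipid and metabolic genes, Fa2h, which makes the 2-hydroxy fatty acids of myelin galactolipids, changed most. It had 73.2 to 114 CPM in acute mice (median 92.2), 41.3 to 87.5 in repeated mice (median 54.5) and 29.9 to 60.4 in challenge mice (median 41.6). No challenge library reached the acute range (log2FC −1.07, SE 0.13, adjusted p 4.82e-10). In libraries of the same mice from the other runs the log2FC of Fa2h was −0.41. Ugt8a, which makes galactosylceramide, fell by 0.53 (SE 0.11), and Sirt2, a deacetylase abundant in myelin, by 0.60 (SE 0.08, adjusted p 2.02e-09). Sirt2 had 180 to 219 CPM in acute mice (median 202), 146 to 215 in repeated mice (median 165) and 111 to 162 in challenge mice (median 133), so its acute and challenge libraries did not overlap. Qdpr, which recycles tetrahydrobiopterin, had a log2FC of −0.24 (adjusted p 0.00182) and Trf, the iron carrier transferrin, of −0.20 (adjusted p 0.0483), both under the fold threshold. Neither Aspa, which splits N-acetylaspartate (log2FC −0.31, adjusted p 0.0546), nor Car2, the cytosolic carbonic anhydrase (log2FC −0.14, adjusted p 0.105), passed the test.

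Apod, a lipocalin that carries lipids, was the 1 member called higher. It had 254 to 331 CPM in acute mice (median 274), 276 to 368 in repeated mice (median 345) and 277 to 414 in challenge mice (median 348), with overlapping ranges (log2FC 0.28, SE 0.06, adjusted p 0.000575). With all libraries thinned to the smallest, 0 members were called higher. The same held without the filter on low counts and without some single libraries, such as the 4th acute replicate at 2 hr. In libraries of the same mice from the other runs, where acute and challenge mice were not sequenced together, Apod had a log2FC of −0.60 in the same comparison. The acute libraries of the shared run read Apod lower than those of the same mice in their own run by a median of 0.64 on the log2 scale (log2 difference −0.64, from −0.69 to −0.51 over 8 mice). Its direction after challenge therefore differed between runs of the same animals.

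In the last group, Tmem88b, a membrane protein of little known function, fell by 0.62 (SE 0.12), Gpr37, an orphan receptor of oligodendrocytes, by 0.55 (SE 0.14), Lpar1, a lysophosphatidic acid receptor, by 0.45 (SE 0.15) and Bcas1, a marker of myelinating cells, by 0.43 (SE 0.09). In the same mice from the other runs, Gpr37, Lpar1 and Ermn had log2FC values of 0.02, 0.07 and 0.04, so these decreases were not seen there. Gjc3 (−0.21), Tspan2 (−0.24), Ugt8a (−0.23) and Tmem88b (−0.03) were not called there either, so that 12 of the 20 calls were made in both sets of libraries. The share of all genes called in the other runs is not given here, so the 12 cannot be set against a background. Adamts4, a metalloproteinase, was low in all groups, from 6.49 to 15.2 CPM in acute mice and from 0 to 11 in challenge mice (log2FC −0.75, SE 0.35, adjusted p 0.122). Cryab, a small heat shock protein (log2FC −0.09), Ndrg1, a stress-responsive gene (−0.16), and Ppp1r14a, a phosphatase inhibitor (0.25), did not pass the test.

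Every challenge library was below every acute library for 8 members (Mbp, Mobp, Mal, Cldn11, Mag, Tspan2, Fa2h and Sirt2), where 2.06% of the 13306 genes compared had this order. For no member was every challenge library above every acute one, an order held by 2.34% of genes. The 35 members together took 1.09 to 1.25% of all counts in acute mice (median 1.16%), 0.871 to 1.05% in repeated mice (median 0.989%) and 0.697 to 0.978% in challenge mice (median 0.768%). Of 24 further oligodendrocyte genes, 23 were tested and 6 of these fell in challenge against acute mice (median log2FC −0.24). Of 17 genes of cholesterol synthesis 2 fell (median −0.09), and of 5 markers of oligodendrocyte precursors 2 fell (median −0.39), where 8.24% of all genes tested were called lower. The cholesterol count lay near that share.

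Markers of other cells moved in the same libraries. The 4 choroid plexus and ependyma markers summed to 1.76 to 26.6 CPM (acute), 17.1 to 52.0 (repeated) and 32.7 to 68.7 (challenge), and the 4 globin genes to 266 to 344 CPM (acute), 216 to 423 (repeated) and 333 to 814 (challenge). The 7 astrocyte markers summed to 4224 to 4530 CPM in acute and 3511 to 4045 in challenge mice. Of these 7, 1 was called lower and 1 higher (median log2FC −0.02), so the sum does not stand for each marker. The 6 precursor markers summed to 117 to 137 CPM in acute and 72.3 to 131 in challenge mice. The 7 general neuron markers summed to 4673 to 4983 CPM in acute and 4418 to 4732 in challenge mice. The 9 markers of striatal projection neurons, the cells that define the tissue, overlapped between acute (13917 to 15269 CPM) and challenge mice (13819 to 15028 CPM). None of these markers was at 0 in all libraries of a group, and their part in the result was not tested.

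Repeated cocaine, compared with acute in the shared run, was accompanied by lower levels of Mbp and of 9 other members. Of the 35 members 10 were called lower and 0 higher with edgeR, where 6.40% of all genes tested were called lower and 7.85% higher. At an unadjusted p under 0.05, 3 members were higher, and DESeq2 also called 10 lower and 0 higher. The median log2FC was −0.22. Of the compact myelin genes only Mbp passed (log2FC −0.44, SE 0.05, adjusted p 9.55e-12), while Mobp had a log2FC of 0.00 (SE 0.05, adjusted p 0.981). Among the surface genes Ermn (−0.46), Gjc3 (−0.42) and Tspan2 (−0.38) fell. The edgeR call of Gjc3 (adjusted p 0.0245) was lost without some single libraries, such as the 3rd acute replicate at 1 hr (adjusted p 0.0662). None of the 5 lineage factors passed. Among the lipid and metabolic genes Fa2h (−0.60), Ugt8a (−0.42), Car2 (−0.32) and Qdpr (−0.30) fell, and in the last group Gpr37 (−0.76) and Lpar1 (−0.58). Every repeated library was below every acute one for 3 members (Mbp, Ermn and Lpar1), where 1.71% of genes had this order, and for 0 members above, where 2.00% did.

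Gpr37 ran from 46.6 to 68.2 CPM in acute mice (median 57.9) and from 25.1 to 50.4 in repeated mice (median 31.0), and Ermn from 83.0 to 106 and from 56.4 to 79.3. Lpar1 had 35.8 to 50.3 CPM in acute and 15.2 to 34.9 in repeated mice. In libraries of the same mice from the other runs, 3 of these 10 calls were made (Mbp, Car2 and Qdpr). Ermn (log2FC −0.05, adjusted p 0.571) and Fa2h (−0.10, adjusted p 0.295) were not called there with edgeR, and the direction of the other 5 was opposite, where Gpr37 had a log2FC of 0.24, Lpar1 of 0.27, Tspan2 of 0.16, Gjc3 of 0.11 and Ugt8a of 0.01. In those libraries acute and repeated mice came from different runs, and 21 members were called (19 lower and 2 higher). The share of all genes called in those libraries is not given here. Neither the 21 members nor the 3 calls made in both sets can therefore be set against a background. Of the 10 calls, 1 was made when the 0 hr mice alone were compared, where 155 of all genes were called.

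Markers of other cells moved in this comparison as well. The 6 endothelial markers summed to 206 to 326 CPM in acute and 328 to 436 in repeated mice, without overlap, and 1 of 6 was called higher. The 9 microglia markers summed to 1006 to 1083 CPM in acute, 1035 to 1233 in repeated and 994 to 1207 in challenge mice, with 4 called higher and 1 lower in repeated mice. The astrocyte markers summed to 3993 to 4780 CPM and the general neuron markers to 4489 to 4851 CPM in repeated mice, which overlapped the acute values. None of these markers was at 0 in all libraries of a group, and their part in the result was not tested.

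Challenge against repeated mice of the shared run gave 9 members called lower and 0 higher with edgeR and with DESeq2 (1 higher at an unadjusted p under 0.05), where 2.00% of all genes were called lower and 2.07% higher. The 9 were 4 compact myelin genes, namely Mobp (log2FC −0.52), Cldn11 (−0.51), Mal (−0.44) and Mbp (−0.39), with Myrf (−0.68), Fa2h (−0.47), Mag (−0.45), Tspan2 (−0.41) and Sirt2 (−0.37). The smallest adjusted p was that of Mobp (2.49e-11) and the largest that of Fa2h (0.0228). Mobp and Myrf, which had log2FC values of 0.00 between repeated and acute mice, were thus lower in the challenge mice, whereas Gpr37 (0.21, SE 0.15) and Lpar1 (0.14, SE 0.16) had log2FC values above 0 that did not pass. The comparisons with acute and with repeated mice share the challenge libraries.

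The same contrast was available in other DS mice, 9 repeated mice of a different cohort and 7 challenge mice, sequenced together in another run. Here 22 members were called lower and 0 higher with edgeR, with 0 higher at an unadjusted p under 0.05 as well, and DESeq2 also called 22 lower. Of all 11749 genes tested, 5.03% were called lower and 5.22% higher. The median log2FC was −0.37 over the members. Mobp ran from 1178 to 1974 CPM in repeated mice (median 1316) and from 777 to 924 in challenge mice (median 874), and Mbp from 4449 to 6517 (median 5089) and from 3083 to 3842 (median 3643). Neither gene's groups overlapped (Mobp log2FC −0.69, SE 0.06, adjusted p 3.44e-13; Mbp −0.58, SE 0.05, adjusted p 1.32e-12). Mal fell by 0.58, Cldn11 by 0.50 and Pllp by 0.42, so that all 5 compact myelin genes fell.

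Outside compact myelin, 6 of 9 surface genes (median −0.48), 2 of 5 lineage factors (median −0.27), 6 of 8 lipid and metabolic genes (median −0.35) and 3 of 8 of the others (median −0.21) were called lower in these mice. Sirt2 had 155 to 191 CPM in repeated and 120 to 132 in challenge mice, with no overlap (log2FC −0.50, SE 0.06). Opalin had 57.3 to 87.4 CPM in repeated and 35.9 to 61.8 in challenge mice, which overlapped (log2FC −0.54, SE 0.09). Apod, at 305 to 446 CPM in repeated and 258 to 313 in challenge mice, fell by 0.34 (SE 0.05). Sox10 had 31.1 to 56.0 and 34.3 to 45.7 CPM (log2FC 0.00, SE 0.10), and Olig2 had 15.3 to 28.3 and 15.6 to 32.4 CPM (log2FC 0.19, SE 0.13), neither of which passed. Depth ran the other way here, with 2460920 to 3564139 counts in repeated and 2930082 to 4308435 in challenge libraries.

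The 9 members called lower in the shared run were all among the 22 called lower in the other mice, which is 9 of 9 and 9 of 22. Across the 35 genes, both sets had a log2FC below 0 for 24, and the 2 sets of values had a Pearson r of 0.591. The sets share no mice, but their challenge mice are of 1 cohort, and the genes are not independent of each other. Choroid plexus and ependyma markers summed to 32.0 to 58.9 CPM in repeated and 67.8 to 110 in challenge mice of the second set, and globin genes to 330.5 to 612 and 546 to 861. Astrocyte markers summed to 3567 to 3930 CPM in repeated and 3323 to 3486 in challenge mice, with 1 of 7 called lower and 1 higher (median log2FC 0.05). The part of these markers in the result was not tested. Of the further oligodendrocyte genes, 10 of 23 fell in this set.

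**Figure D2:**
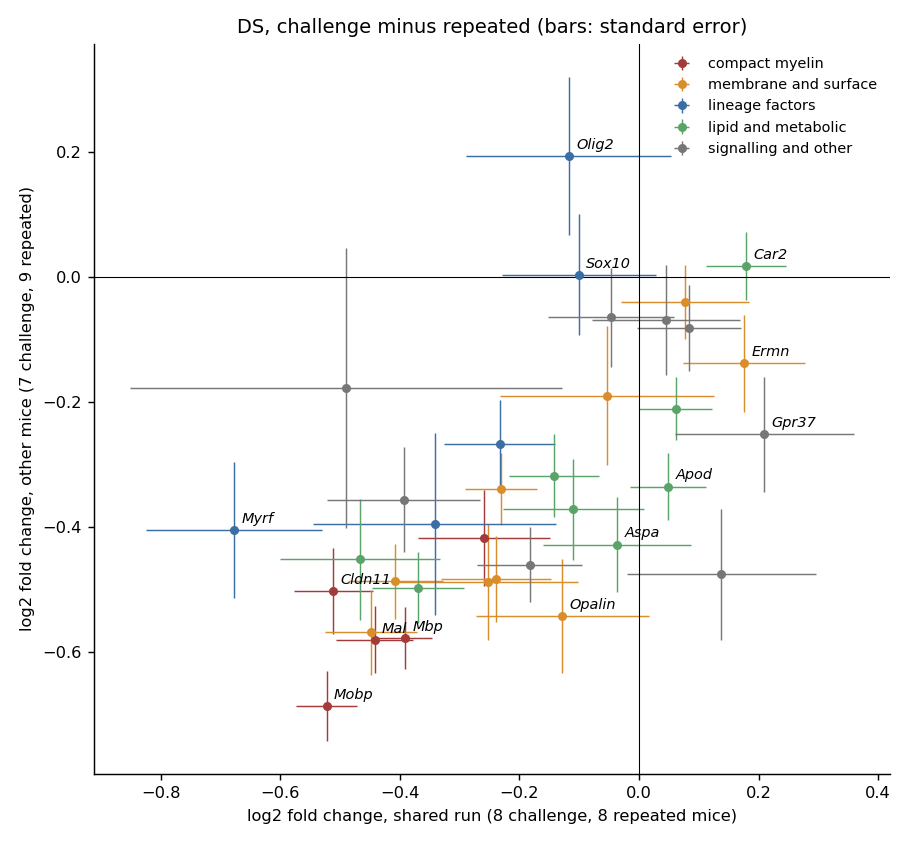
Log2 fold change of challenge against repeated mice in the DS for the 35 members, with the shared run on the x axis (8 mice each) and the other mice on the y axis (9 repeated, 7 challenge); points are genes colored by role with bars for the SE. Of the 35 genes, 24 lie below 0 on both axes, and Mobp, Mal, Mbp and Cldn11 are among the lowest on both.

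In the NAc, LCtx, Amy and LH, challenge and acute libraries came from different runs, so the same contrast carries the run as well as the experience, which cannot be told apart. Most mice gave several structures (15 of 16 acute and 15 of 15 challenge mice gave at least 2), so the structures are not independent of each other. The NAc had 24 members called lower and 0 higher, where 13.1% and 10.2% of genes tested were. The LCtx had 14 and 1 (background 9.30% and 8.00%), the Amy 21 and 1 (8.79% and 5.38%) and the LH 14 and 2 (10% and 7.21%). For the NAc, 0 members were higher at an unadjusted p under 0.05 and DESeq2 called 0 higher. The median log2FC over members was −0.39 (NAc), −0.32 (LCtx), −0.35 (Amy) and −0.24 (LH). Without the mice of replicate 1, the LH had 10 members lower and 0 higher, and without those of replicate 2 the LCtx had 8 lower and 0 higher. Scaling by library totals alone raised the share of lower calls among all genes called from 56.3% to 74.7% (NAc), from 53.7% to 67.8% (LCtx) and from 62.0% to 72.2% (Amy).

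Of the 5 compact myelin genes, 5 were called lower in the NAc (median −0.60), LCtx (median −0.58) and Amy (median −0.52), and 4 in the LH (median −0.38). Mobp ran from 831 to 1189 CPM in acute and from 410 to 750 in challenge mice of the NAc, and from 2282 to 2566 and 1348 to 1775 in the LH. The acute and challenge libraries of Mobp did not overlap in the NAc or the LH (log2FC −0.74, SE 0.07, and −0.61, SE 0.05). In the Amy, Mobp had 706 to 1134 CPM in acute and 442 to 589 in challenge mice, also without overlap (log2FC −0.77, SE 0.06), and in the LCtx 142 to 448 and 121 to 202, with overlap (log2FC −0.61, SE 0.12). Mbp fell by 0.60 (NAc), 0.58 (LCtx), 0.49 (Amy) and 0.38 (LH). Mal fell by 0.56, 0.45 and 0.52 in the first 3, and had a log2FC of −0.22 in the LH, under the fold threshold.

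Among the other roles, surface genes were called lower in 7 of 9 cases (NAc), 6 (LCtx), 8 (Amy) and 3 (LH). Lineage factors were called lower in 3 of 5 cases (NAc), 1 (LCtx), 4 (Amy) and 4 (LH). Sox10 fell by 0.34 (NAc), 0.39 (Amy) and 0.27 (LH), whereas Olig2 was not called in any structure, with log2FC values from −0.22 (NAc) to −0.03 (LH). Nkx6-2 was among the 3 largest decreases in the Amy (−0.64, SE 0.10) and the LH (−0.61, SE 0.09). Lipid and metabolic genes were called lower in 5 of 8 cases (NAc), 1 (LCtx), 1 (Amy) and 0 (LH). Whether these counts differ between structures beyond error was not tested.

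Car2 went the other way in 2 structures. It had 242 to 295 CPM in acute and 300.3 to 373 in challenge mice of the Amy (log2FC 0.32, SE 0.05, adjusted p 1.31e-06), and 401 to 462 and 434 to 580 in the LH (log2FC 0.28, SE 0.06, adjusted p 0.000597). In the Amy the groups did not overlap, and in the LH they did. Ermn also rose in the LH (0.29, SE 0.07). Neither LH increase was called without the mice of replicate 1. Apod rose in the LCtx (log2FC 0.34, SE 0.09) and fell in the NAc (−0.31, SE 0.06), and in the Amy and LH it had values of −0.26 and −0.12 that were not called. Trf was called lower in the NAc (log2FC −0.39, SE 0.07) and was not called lower in the LCtx, Amy or LH. Whether its difference varies between structures was not tested.

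Counting the DS comparison of the shared run with these 4, Cldn11, Mag, Mbp, Mobp, Myrf, Pllp and Tmem88b were called lower in all 5 structures. Without an LCtx library described below, Myrf, Pllp and Tmem88b were not called in the LCtx, which leaves Cldn11, Mag, Mbp and Mobp. Tmem88b was also not called in the DS libraries of the same mice from the other runs. Adamts4, Car2, Cryab, Olig2 and Qdpr were called lower in none.

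**Figure D3:**
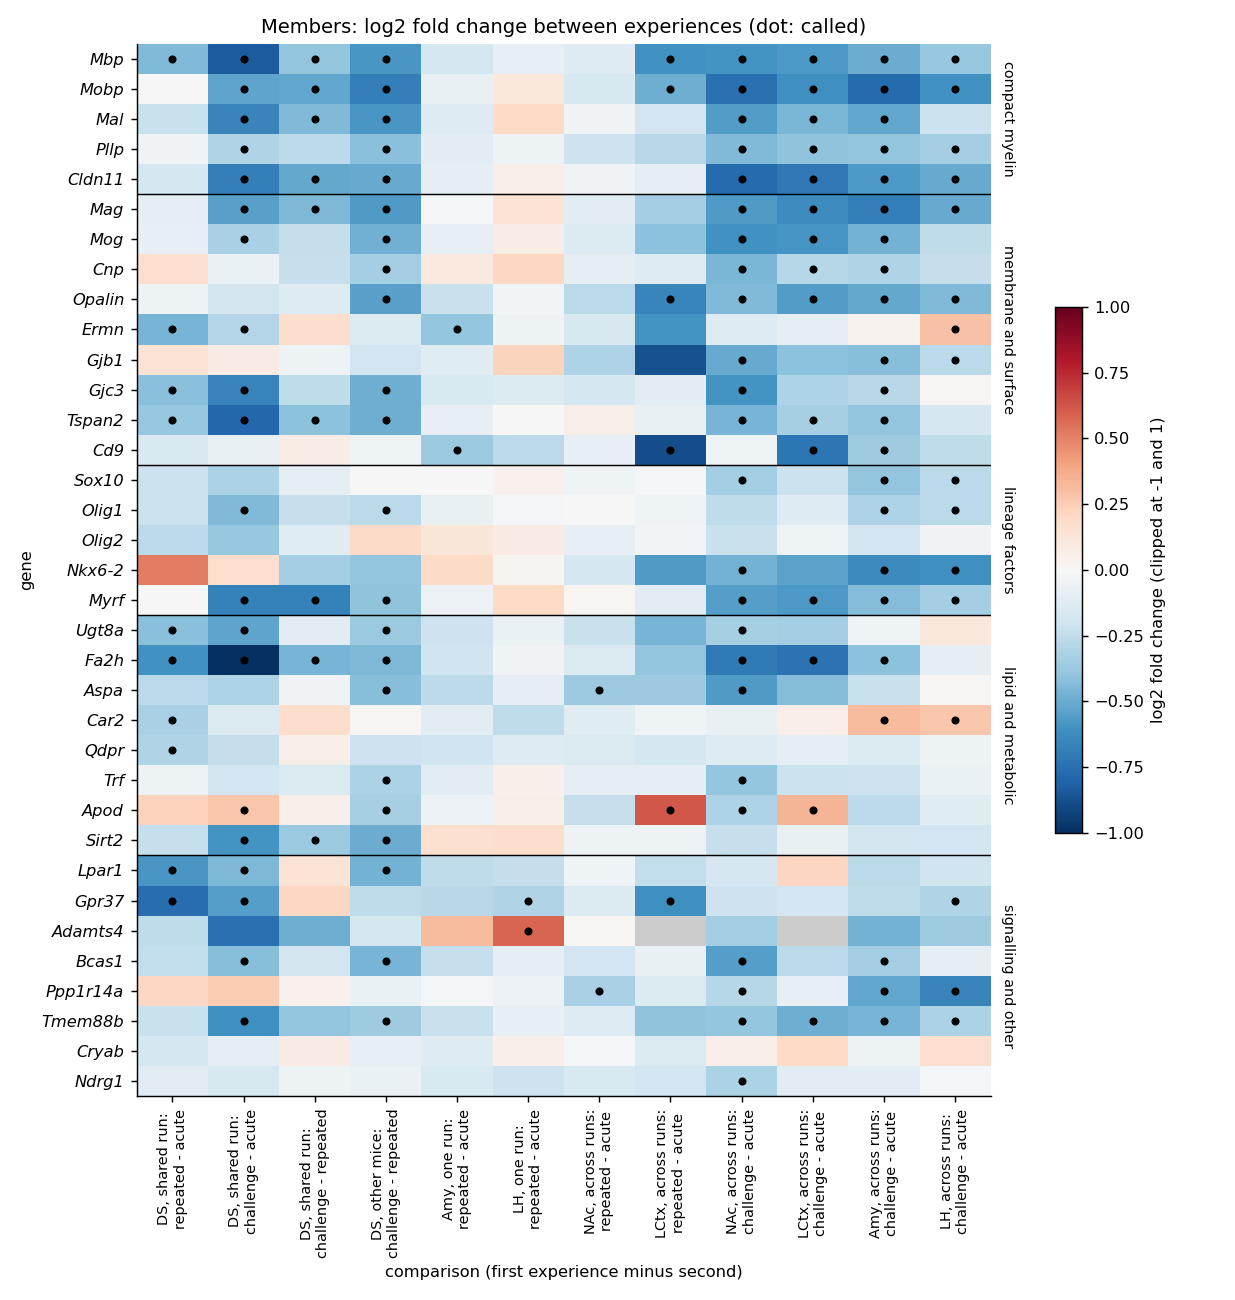
Log2 fold changes of the 35 members (y axis, grouped by role) in each comparison of cocaine experiences (x axis), with a dot for each called gene, gray where a gene was not tested, and a color scale clipped at -1 and 1. Mbp, Mobp and Cldn11 are called lower after challenge against acute in all 5 structures, and the repeated against acute columns of the Amy, LH and NAc hold 2 called genes each.

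Other cell markers also moved in these comparisons. In the NAc, 4 of 4 markers of cortical excitatory neurons were called higher in challenge mice (sums of 32.9 to 373 CPM in acute and 148 to 602 in challenge mice), and in the Amy 8 of 9 striatal projection neuron markers were called lower (1377 to 1992 and 861 to 1466 CPM). In the LCtx, 9 of 9 striatal markers were called higher (296 to 886 and 635 to 889 CPM), and 4 of 4 globin genes lower (8421 to 14219 and 471 to 1217 CPM). The 7 general neuron markers summed to 4917 to 5387 CPM in acute and 5405 to 6470 in challenge mice of the Amy, without overlap, and to 4537 to 5093 and 5024 to 5492 CPM in the LH, with overlap. In the NAc they summed to 4169 to 4757 and 4211 to 5055 CPM, and in the LCtx to 5977 to 7087 and 5486 to 6018 CPM. The 7 astrocyte markers summed to 4327 to 4988 CPM in acute and 3870 to 4759 in challenge mice of the Amy, and to 4119 to 4522 and 3975 to 4280 in the LH. In the NAc they summed to 3801 to 4464 and 3348 to 4020 CPM, and in the LCtx to 3992 to 4750 and 3833 to 4504 CPM. The globin genes of the NAc summed to 284 to 506 CPM in acute and 344 to 1389 in challenge mice. None of the neuron or astrocyte markers was at 0 in all libraries of a group. Their part in the result was not tested.

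A single LCtx library stood apart. The 2nd replicate of acute mice at 1 hr had 0.523% of its counts in the 35 members, the highest of the 28 LCtx libraries, whose median was 0.260%. Without it, 9 members were called in challenge against acute mice of the LCtx in place of 15. These were Cd9, Cldn11, Mag, Mal, Mbp, Mobp and Opalin, called lower, and Apod and Cryab, called higher.

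Repeated against acute mice differed for few members outside the DS. In the Amy, where both experiences shared a run, 2 members were called lower (Ermn, log2FC −0.39, and Cd9, −0.37) and 0 higher by edgeR and by DESeq2 (1 higher at an unadjusted p under 0.05), where 4.56% of genes were called lower and 4.73% higher. Mbp had 2400 to 4266 CPM in acute and 2380 to 3620 in repeated mice of the Amy, which overlapped (log2FC −0.18, SE 0.08, adjusted p 0.130). The Amy count depended on single libraries, with 8 members called without the 2nd acute replicate at 4 hr, 7 without the 1st repeated replicate at 2 hr, 4 without the 2nd acute replicate at 2 hr and 4 without the 1st repeated replicate at 4 hr. In the LH, also within a run, Gpr37 fell (log2FC −0.30, SE 0.07) and Adamts4 rose (0.58, SE 0.18), where 2.82% of genes were called lower and 2.02% higher. DESeq2 called 1 lower and 0 higher. The LH count also depended on single libraries, with 5 members called without the 1st repeated replicate at 2 hr, 4 without the 1st acute replicate at 2 hr or the 2nd repeated replicate at 0 hr, and 1 without any of 5 others (the 1st acute replicate at 1 hr, the 2nd acute at 2 hr, the 2nd repeated at 1 hr, the 2nd repeated at 2 hr and the 1st repeated at 4 hr). Mobp had 2282 to 2566 CPM in acute and 2302 to 2805 in repeated mice of the LH (log2FC 0.10, SE 0.03), under the fold threshold. Markers of other cells moved too. In the Amy, 9 of 9 striatal projection neuron markers were called lower (median log2FC −0.66), and 2 of 3 cortical excitatory neuron markers tested were called higher. In the LH, 2 of 8 striatal and 2 of 3 cortical markers tested were called lower. The part of these markers in the result was not tested. Scaling by library totals alone raised the share of lower calls among all genes from 49.1% to 68.6% in the Amy and from 58.3% to 71.4% in the LH, with 4 members called in each.

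A direct test of whether the repeated against acute difference itself differed between the Amy and the LH called 0 of the 35 members with edgeR. Of all 12485 genes tested, 90 were called (26 lower and 64 higher), so few calls were made among all genes as well. At an unadjusted p under 0.05 there were 4, and the smallest adjusted p was that of Mal (0.125).

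Across runs, repeated against acute mice of the NAc gave 2 members called lower (Aspa, log2FC −0.36, and Ppp1r14a, −0.33) and 0 higher by edgeR and by DESeq2, with 0 higher at an unadjusted p under 0.05, where 2.75% of genes were called lower and 1.57% higher. Neither call was made without the mice of replicate 2, and 1 was made without those of replicate 4. In the LCtx, 5 of 34 members tested were called lower (Cd9, −0.89, Opalin, −0.66, Gpr37, −0.61, Mbp, −0.60, and Mobp, −0.49) and 1 higher (Apod, 0.62), where 2.60% of genes were called lower and 1.39% higher. Cd9 had 66.4 to 84.0 CPM in acute and 34.4 to 53.6 in repeated mice, and Apod 95.3 to 179 and 191 to 299.7 CPM, both without overlap. The globin genes summed to 344 to 660 CPM in the repeated against 8421 to 14219 in the acute LCtx libraries. Of the striatal projection neuron markers, 9 of 9 were called higher in repeated mice of the LCtx (median log2FC 0.84). In the NAc, 2 of 4 cortical excitatory neuron markers were called higher. The part of all these genes in the result was not tested. Without the LCtx library that stood apart, Cd9, Mbp and Opalin were called lower and Apod higher.

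The members differed in level between structures. By median CPM, 34 of the 35 members were highest in the LH and 35 were lowest in the LCtx, and 24 followed the order LH, DS, NAc, Amy, LCtx. These medians pool experiences whose shares differ between structures. Within an experience the same order held for 20 (acute), 22 (repeated) and 10 (challenge), and in challenge mice the order with the Amy above the NAc was held by 17. Cd9 was the exception at the top over all samples, with its highest median in the DS. Mbp had 5782 to 9589 CPM in the 23 LH samples (median 8001), 3083 to 6649 in the 48 DS samples (median 5063), 1669 to 4094 in the 36 NAc samples (median 3172), 2109 to 4266 in the 31 Amy samples (median 2558) and 609 to 2015 in the 28 LCtx samples (median 771). The ranges of the LH and DS, of the DS and NAc and of the NAc and Amy overlapped, whereas every Amy library was above every LCtx library. For 10 members (Pllp, Ermn, Tspan2, Sox10, Olig1, Nkx6-2, Qdpr, Trf, Tmem88b and Cryab) every LH library was above every library of the other structures. Neither this count nor the counts of the order were taken over all genes, so they have no background share. The DS shared no run with another structure, so its place in the order includes the run.

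**Figure D4:**
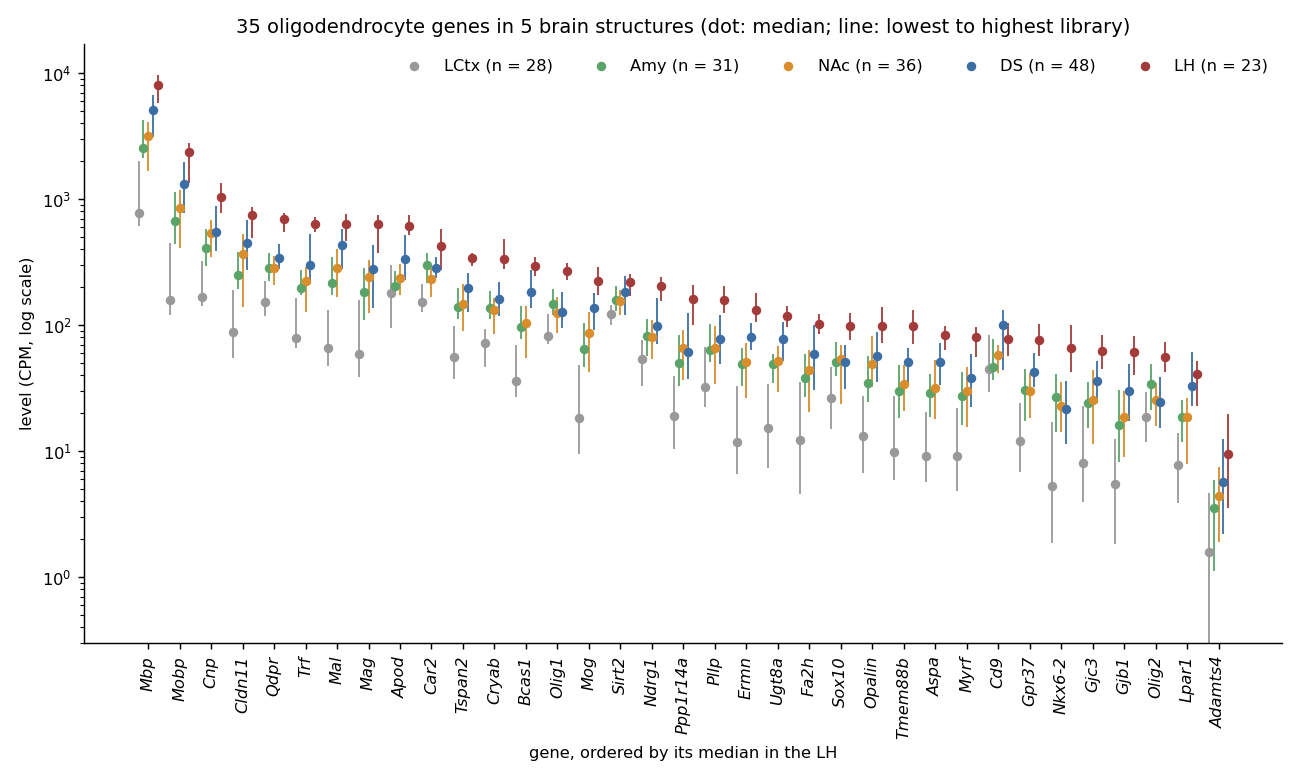
CPM (logarithmic y axis) of the 35 members (x axis, ordered by their median in the LH) in each structure, with a dot at the median and a line from the lowest to the highest library. The LH has the top median for 34 members and the LCtx the bottom one for 35, at 8001 and 771 for Mbp; the LCtx line of Adamts4, whose lowest value is 0, is clipped at the axis.

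Differences between the LH and the LCtx ranged widely within each role. The ratio of the LH median to the LCtx median was 7.69 at the median of all members, 9.61 over the compact myelin genes, 7.76 over the surface genes, 6.12 over the lipid and metabolic genes, 6.18 over the last group and 3.73 over the lineage factors. It ran from 4.92 to 14.9 within the compact myelin genes, from 1.74 to 12.3 within the surface genes and from 2.96 to 12.5 within the lineage factors, and whether it differs by role was not tested. Mobp had the widest ratio (14.9) and Cd9 the narrowest (1.74), followed by Sirt2 (1.79). Olig2 had 42.2 to 73.2 CPM in the LH (median 55.5) and 11.7 to 29.3 in the LCtx (median 18.8). Sox10 had 76.8 to 125 CPM in the LH (median 98.9), and its medians in the NAc, Amy and DS lay between 51.2 and 53.8.

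Within a run, the Amy was below the LH for 35 of 35 members (median log2FC −1.31), where 21.9% of genes were called lower and 22.8% higher. No member was higher by edgeR or DESeq2, or at an unadjusted p under 0.05 (0 of 35). The largest differences were those of Gjb1 (−1.73, SE 0.08), Mog (−1.56, SE 0.05) and Trf (−1.56, SE 0.04). Mbp differed by −1.43, Sox10 by −0.78 and Olig2 by −0.61. In repeated mice, 34 of 35 members were called higher in the NAc than in the LCtx (median 1.55), where 19.8% of genes were called higher and 21.1% lower. Apod was the exception (log2FC −0.04, adjusted p 0.713), and edgeR and DESeq2 called 0 members lower, with 0 at an unadjusted p under 0.05.

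Challenge samples of 4 structures shared 2 runs and gave the other pairs. Against the LCtx, 33 members were called higher in the NAc (median 1.37, background 21.4% higher and 21.8% lower), 32 in the Amy (median 1.31, background 17.7% and 17.9%) and 35 in the LH (median 2.69, background 27.8% and 28.5%). Under library totals alone, the share of lower calls among all genes called in the Amy against the LCtx was 40% in place of 50.3%. The LH was higher than the NAc for 35 members (median 1.39, background 27.7% higher and 28.3% lower) and higher than the Amy for 35 (median 1.38, background 22.2% in each direction). None of these 5 comparisons called a member lower by edgeR or DESeq2, and none had a member lower at an unadjusted p under 0.05.

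Of the 6 pairs of structures compared in challenge mice, which did not include the DS, the Amy and the NAc had the fewest members called. Of 35 members, 4 were called lower in the Amy (Ppp1r14a, log2FC −0.55, Opalin, −0.43, Mag, −0.39, and Cd9, −0.28) and 3 higher (Car2, 0.57, Olig2, 0.37, and Olig1, 0.28), where 21.5% of genes were called lower and 22.0% higher. The median over members was 0.03. Mbp had a log2FC of 0.03 (SE 0.06) between these structures, and Sox10 of 0.02 (SE 0.08). Without the mice of replicate 1 there were 3 lower and 4 higher calls, and without those of replicate 3 there were 4 lower and 5 higher.

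Among mice of the same structure, experience and time, compact myelin genes varied together. The median Pearson r between pairs of compact myelin genes, computed on deviations of log2(CPM + 1) from group means, was 0.82 (NAc), 0.82 (Amy), 0.79 (LCtx), 0.62 (DS) and 0.51 (LH). Pairs of lineage factors had medians of 0.05 (LCtx), 0.18 (NAc), 0.31 (DS), 0.27 (Amy) and 0.22 (LH). Over all 595 pairs of members, the median lay between 0.25 in the LH and 0.51 in the Amy and the NAc. These pairs share libraries and their depth, and lineage factors have fewer counts. Differences between runs and cohorts were not removed. Challenge groups outside the DS mix runs, and repeated groups of the DS mix cohorts. The LCtx values include the library that stood apart. In the DS, the genes whose deviations were most like those of Mbp over 48 mice were Mobp (r 0.87), Trf (r 0.82) and Bcas1 (r 0.76), and those least like it were Adamts4 (r −0.18) and Cd9 (r 0.03).

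The median SD of the members around group means was, on the log2(CPM + 1) scale, 0.29 (LCtx), 0.23 (NAc), 0.20 (Amy), 0.19 (DS) and 0.13 (LH), against 0.16 to 0.20 for all 9923 genes with a mean of at least 10 CPM.

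Few members were called as different between the hours after cocaine. Over the 3 experiences together, edgeR called 0 members in the DS (1.99% of genes called), LCtx (0.216%), Amy (0.233%) and LH (0.106%) and 1 in the NAc (0.170%). The 1 was Mag, with a log2FC of 0.60 at 1 hr after challenge (adjusted p 0.0496). The NAc challenge samples at 0 hr came from a single run and those at 1 hr from this and another run, so run enters this difference. At an unadjusted p under 0.05 there were 4 members in the DS, 7 (LCtx), 8 (Amy), 13 (LH) and 11 (NAc), and DESeq2 called 0, 0, 0, 0 and 1. The share of all genes at that unadjusted p is not given here. Without the mice of replicate 1 the LCtx had 6 calls and the NAc 2, and without replicate 2 the DS had 1. The DS samples span runs and cohorts, and with run or cohort as a term 2 members were called in the DS. The NAc call was not made without replicate 2, 3 or 4.

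Within each DS experience, 0 members were called by edgeR for acute (1.73% of genes called), repeated (0.369%) or challenge (0.807%), with 9, 3 and 9 members at an unadjusted p under 0.05 and 1, 0 and 0 called by DESeq2. Ppp1r14a in acute mice came closest, with an adjusted p of 0.0174 but a log2FC of 0.25 at 1 hr, under the fold threshold. The largest difference of each member from its 0 hr mean had a median size, on the log2 scale, of 0.19 (acute), 0.15 (repeated) and 0.18 (challenge). Without replicate 1 there were 2 calls in acute mice, and without replicate 2 or 3 there was 1 in challenge mice.

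**Figure D5:**
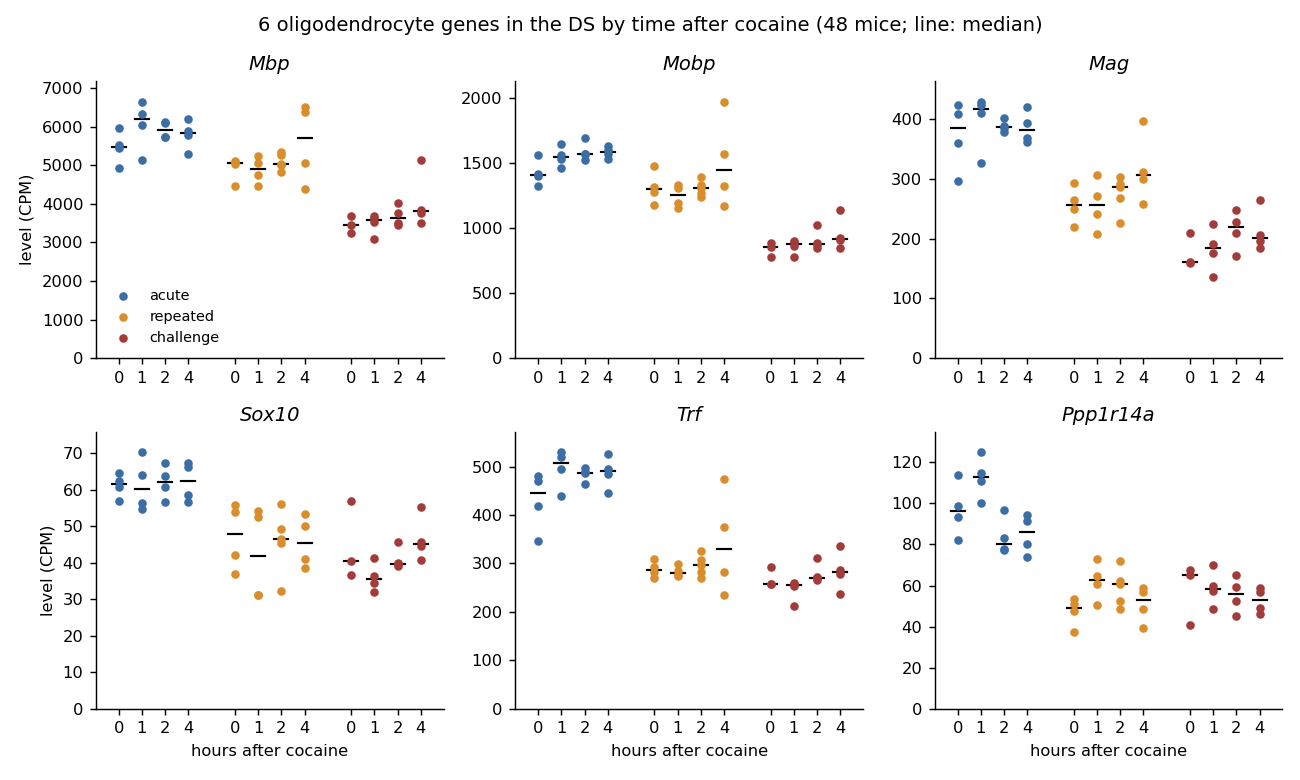
CPM of selected members in the DS by hours after cocaine (x axis) for acute, repeated and challenge mice, with 1 point per mouse, a line at the median of each group and y axes that start at 0. The hours of an experience overlap, and 0 of the 35 members passed the test over time in the DS that had no term for run or cohort.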

How the data were processed

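3′-RNA-seq was carried out on dissected tissue of 5 brain structures, in libraries with unique molecular identifiers (UMIs), tags that let PCR copies of a molecule be counted once. The authors removed PCR duplicates by UMI, trimmed polyA tails, aligned reads to GRCm38 with STAR and counted reads per gene with HTSeq, whose versions are not given in the sources used here. The deposited values are raw counts for 19363 genes and 194 libraries, without normalization, and 197 genes have no count. The study states that libraries above 8000000 reads were thinned to 50%, and deposited totals were used as they are.

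The 35 members and all gene lists were chosen with earlier results of these data known, and lists taken from an earlier analysis of the same counts support nothing here. Groups, times and replicate numbers came from the sample labels, and runs, cohorts and mice from the sample names of the study. Each mouse and structure entered once, and 4 duplicate libraries were not used. CPM values were counts divided by library totals. Fold changes came from edgeR 4.0.16 in R 4.3.3 (filterByExpr, TMM, quasi-likelihood F tests with time as a covariate, Benjamini-Hochberg adjustment over all genes tested), with a call at an adjusted p under 0.05 and a fold change over 1.2. DESeq2 1.42.0 was an alternative. Mice were the replicates, and no cohort held mice of more than 1 experience. Tests over time covered the 3 experiences together and, in the DS, each experience alone, on all genes that passed the filter; the study ran the latter on genes selected in the former. Named genes were every member called in the shared DS run and, elsewhere, up to 3 of the largest changes in each direction with Mbp, Mobp, Mal, Sox10, Olig2, Apod and Trf; others are named where a count needed them.

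Tested on simulated data drawn for the shared DS run (repeated against acute, 11210 genes, 200 changed), edgeR recovered 30% of 1.3-fold, 54% of 1.5-fold and 90% of 2-fold changes, and 2.16% of calls were false. Drawn for the other DS mice (challenge against repeated, 11749 genes, 200 changed), it recovered 56% of 1.3-fold, 80% of 1.5-fold and 90% of 2-fold changes, and 4.71% of calls were false. No pair of libraries of a group agreed within sampling noise (178 pairs, lowest chi-square per degree of freedom 1.73). All 35 members matched GENCODE M21 genes of GRCm38, which may differ from the annotation used for counting. Whether counting used strand is not given in the sources used here, so Cnp, Ermn, Tspan2, Nkx6-2, Sirt2, Adamts4 and Cryab, which overlap a gene of the opposite strand, and Trf, which overlaps another gene model, may share reads with it. Python 3.11.15 with pandas 2.3.3, numpy 2.4.6, scipy 1.17.1 and matplotlib 3.10.9 was used for levels and plots. Alternatives covered tool, scaling, filter, fold threshold, 0 hr mice alone, thinning, replicate block, other runs of the same mice and leaving out each library or replicate.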

Additional observations from a re-analysis of the deposited data

Results flagged for a closer look

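In each group of 8 DS mice of the shared run, the highest and lowest library of every member was compared with its nearest neighbor by Dixon's test, which flags about 1 in 20 groups by chance, and 6 of 105 groups stood out. Mbp was 3772 CPM in a challenge mouse (4 hr, replicate 2), where the next highest was 2998. Gjb1 was 15.5 CPM in an acute mouse (4 hr, replicate 2), where the next lowest was 20.9. Olig2 was 19.0 CPM in an acute mouse (0 hr, replicate 3), next to 29.7. Car2 was 206 CPM in a challenge mouse (1 hr, replicate 2), next to 251. Lpar1 was 15.2 CPM in a repeated mouse (4 hr, replicate 4), next to 24.8, and Adamts4 was 1.72 CPM in a repeated mouse (0 hr, replicate 3), next to 7.08.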

How the results depend on the processing

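Of 207 counts of members called under alternatives that kept all replicates, 162 stayed within 1.5 times the count as reported. With a fold change over 1.5, calls numbered 2 (repeated against acute), 9 (challenge against acute) and 1 (challenge against repeated) in the shared DS run, 1 in the other DS mice, 0 (Amy) and 0 (LH) for repeated against acute, 3 (Amy), 3 (LH), 6 (NAc) and 6 (LCtx) for challenge against acute, 0 for repeated against acute in the NAc and 0 for the Amy against the NAc. With 0 hr mice alone they were 1 and 8 against acute mice in the shared DS run, 7 in the other DS mice, 4 (Amy) and 1 (LH) for repeated, 13 (Amy), 5 (LH), 15 (NAc) and 3 (LCtx) for challenge, and 0 (NAc) and 2 (LCtx) for repeated, with fewer samples by construction. The other DS mice and the LH had 1 challenge mouse at 0 hr, assumed to vary like the others, so their counts of 7 and 5 have no replicate in that arm. Pllp reversed to 0.17 (DS). With the same mice from other runs, 21 were called for repeated against acute, where Gjc3 (0.11), Gpr37 (0.24), Lpar1 (0.27), Tspan2 (0.16) and Ugt8a (0.013) reversed, and for challenge against acute Apod (−0.60), Ermn (0.043), Gpr37 (0.020) and Lpar1 (0.066) reversed. With library totals alone, 4 were called in the Amy and 4 (LH) for repeated against acute, and 0 over time in the NAc, where RLE scaling also gave 0. DESeq2 called 1 (LH) for repeated against acute and 1 over time in acute DS mice. Without a filter on low counts, 4 were called in the Amy and 11 (LCtx) for repeated against acute, and over time 3 (LCtx), 9 (NAc), 2 (DS), 3 (Amy), 1 (LH), 1 in acute and 2 in challenge DS mice. With run or cohort as a term, 2 were called over time in the DS. Replicate numbers did not pair the mice (median correlation of deviations of same-numbered mice from −0.010 to 0.012 by structure). With the replicate block, 9 were called for challenge against acute and 2 for challenge against repeated in the shared DS run, where Fa2h reversed to 0.054, 4 in the other DS mice, 0 for repeated against acute in the NAc and 0 over time in the NAc. With the mouse as a block, the counts between structures were as reported. Leaving out libraries or replicates in turn gave 9 to 12, 17 to 21 and 8 to 11 calls in the 3 comparisons of the shared DS run, 20 to 24 in the other DS mice, 2 to 8 (Amy), 1 to 5 (LH), 0 to 2 (NAc) and 4 to 7 (LCtx) for repeated against acute, 17 to 23 (Amy), 10 to 17 (LH), 24 to 25 (NAc) and 8 to 14 (LCtx) for challenge against acute, and over time 0 to 6 (LCtx), 0 to 2 (NAc), 0 to 1 (DS), 0 (Amy), and 0 to 2 in acute, 0 in repeated and 0 to 1 in challenge DS mice. Without the LCtx library that stood apart, a choice made after seeing the data, 9 were called for challenge against acute. Between structures the counts were 35 for the Amy against the LH, 33 to 34 for the NAc against the LCtx in repeated mice, and in challenge mice 32 to 33 for the NAc and for the Amy against the LCtx, 35 for the LH against the LCtx, 7 to 9 for the Amy against the NAc, where more members were higher than lower without replicate 1 or 3, and 34 to 35 for the LH against the NAc and the Amy. Leaving out replicates was not run over time in the LH, which has 1 or 2 mice at each time. The causes of these changes were not tested. Low genes had few counts in the libraries of the shared DS run, such as Adamts4 (0 to 41) and Olig2 (25 to 89). Whether depth bears on their results was not tested.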
